A study of Mus musculus with 6 samples.

Results

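MicroRNAs that are known from other tissues or from other positions along the body were followed in 2 classes of projection neuron of the newborn mouse cortex. The set holds every assay whose base number is one of 20: the Hox-linked miR-10, miR-196 and miR-615, the stem cell miR-290 to miR-295, miR-302 and miR-367, the liver miR-122, the pancreatic miR-216, miR-217 and miR-375, the heart miR-208 and miR-499, and the red cell miR-451, miR-144 and miR-486. The rule reads names and no measured value, though the set was proposed with earlier results of these data known. They are 40 of the 584 microRNA assays, 39 mouse-named and 1, miR-196c, rat-named. Card A holds 28 of them and card B holds 12. An assay for miR-144 was not analysed here.

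Cell bodies were purified at postnatal day 1 from callosal projection neurons (CPN, 3 samples, marked as controls), whose axons cross to the other hemisphere, and from subcerebral projection neurons (SCPN, 3 samples, marked as test), whose axons leave the cortex for the brainstem and spinal cord. The labels give no strain, sex, treatment or genetic change for either group, and neither how the neurons were labelled nor whether animals were pooled. Whether replicates are separate animals or litters is not stated, so a p-value here reflects sample-to-sample spread that could be purely technical. MicroRNA was read on TaqMan Low Density Array cards, on which each well is a quantitative PCR for 1 microRNA. The threshold cycle (Ct) is the PCR cycle at which product becomes visible above a fixed fluorescence, and more template gives a lower Ct. An assay was counted as called at a Ct under 35.

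A microRNA represses messenger RNAs that pair with its seed, bases 2 to 8 from the 5′ end, so microRNAs with 1 seed share many targets. MiR-10, miR-196 and miR-615 genes lie inside the Hox clusters, which pattern the hindbrain, spinal cord and trunk, and the forebrain forms in front of that territory. The miR-290 and miR-302 clusters are transcribed in pluripotent cells and the early embryo and are known for speeding the cell cycle. MiR-122 makes up much of the microRNA of hepatocytes, miR-216 and miR-217 mark pancreatic acinar cells, and miR-375 marks islet and other endocrine cells. MiR-208 and miR-499 come from introns of myosin heavy chain genes, and miR-451, cut by Ago2 in place of Dicer, builds up in maturing red cells.

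Mature sequences were found for 34 members, among them 10 of the 15 called in at least 1 sample, in the RefSeq table of mouse build GRCm38.p6. The ones below show which called members share a seed, written in capitals, with each other, with an uncalled neighbour or with an abundant microRNA outside the set.
miR-302b: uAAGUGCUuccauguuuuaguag
miR-302d: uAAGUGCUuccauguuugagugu
miR-302c: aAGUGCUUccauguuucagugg
miR-294: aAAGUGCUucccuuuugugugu
miR-295: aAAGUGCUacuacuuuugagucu
miR-291a-3p: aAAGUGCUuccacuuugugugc
miR-291b-5p: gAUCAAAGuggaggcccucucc
miR-367: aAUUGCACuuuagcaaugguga
miR-92a: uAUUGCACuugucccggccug
miR-10a: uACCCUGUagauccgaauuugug
miR-10b: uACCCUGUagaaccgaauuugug
miR-216b: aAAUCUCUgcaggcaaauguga
miR-217: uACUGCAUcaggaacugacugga
miR-451: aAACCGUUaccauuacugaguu
The seed AAGUGCU was shared by 5 members with a sequence, miR-302b, miR-302d, miR-294, miR-295 and miR-291a-3p, which come from both stem cell clusters. MiR-302c matches miR-302b over 16 bases once the first base of miR-302b is dropped, so its seed is offset from theirs. MiR-367 has the seed AUUGCAC of miR-92a, the most abundant of the 4 assays outside the set with this seed, and miR-10a and miR-10b differ at 1 of 23 bases, outside the seed.

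Few of the 40 members were called. At least 1 sample called 15 members (12 in only 1 or 2 samples), against 63.9% of all 584 assays, and 25 members were called in no sample. At least 3 samples called 3 members, against 52.4% of all assays, and all 6 samples called 1 member, miR-375, against 38.4% of all assays. By role, calls in at least 1 sample were made for 2 of 9 Hox-linked, 8 of 21 stem cell, 1 of 1 liver, 3 of 4 pancreas, 1 of 2 red cell and 0 of 3 heart assays. The 2 Hox-linked assays were miR-10a and the rat-named miR-196c. The 15 called members were all on card A, and none of the 12 members on card B was called, 8 of which are minor strands, named with an asterisk. Of the 584 assays, 209 are on card B, which held 65 of those called in all 6 samples, against 159 on card A. The share of all assays called in at least 1 sample was not worked out per card, so the split of members by card was not compared with it. In these pools of purified cells, fewer cells of a type and less RNA per cell cannot be told apart.

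**Figure D1:**
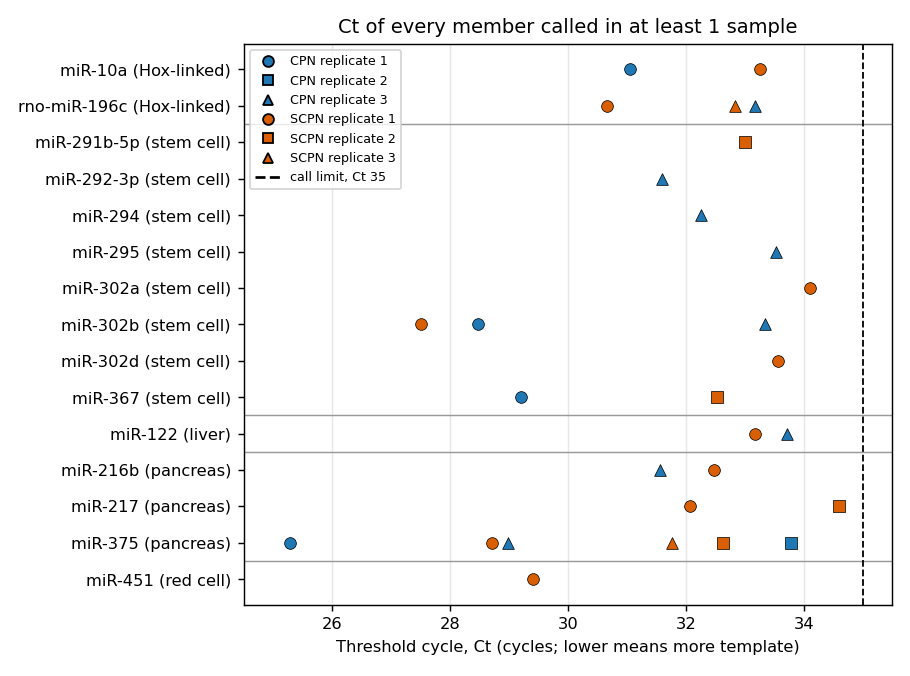
Threshold cycle (x axis, cycles) of each of the 15 members called in at least 1 sample (y axis, with role), 1 point per sample that called it, blue for CPN and orange for SCPN, with the shape giving the replicate. The dashed line is the call limit of Ct 35; miR-375 alone has 6 points, and most of the others lie between 31 and 35.

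Calls of members were made late in the PCR. The 29 calls had a median Ct of 32.5 (25.3 to 34.6), against 27.2 for the 1762 calls of all assays. Of these 29, 22 had a Ct of 30 or more (75.9%, against 29.2% of all calls), and 17 lay between 32 and 35. The 7 calls under Ct 30 belonged to miR-375 in 3 samples, miR-302b in 2, miR-367 in 1 and miR-451 in 1.

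Paired wells on card B show how firm a call at such a Ct is. With the lower Ct of a pair under 30, the other well gave a Ct under 35 in all of 228 pairs. A count of 0 failures allows a share of up to 1.32%, for counting error only, as pairs of the same assay in different samples are not independent. At 30 to 32 the other well gave no Ct in 1.39% of 72 pairs, and no Ct under 35 in 4.17%. At 32 to 35 it gave no Ct in 32.1% of 78 pairs, and no Ct under 35 in 61.5%. Every called member was on card A in a single well, so these shares describe neighbouring wells and not the members themselves, and a lower Ct of 2 wells is not the same quantity as a single Ct. The plant assay that serves as a blank gave a Ct in 0 of 12 wells, which allows a share of up to 25%, for counting error only.

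**Figure D2:**
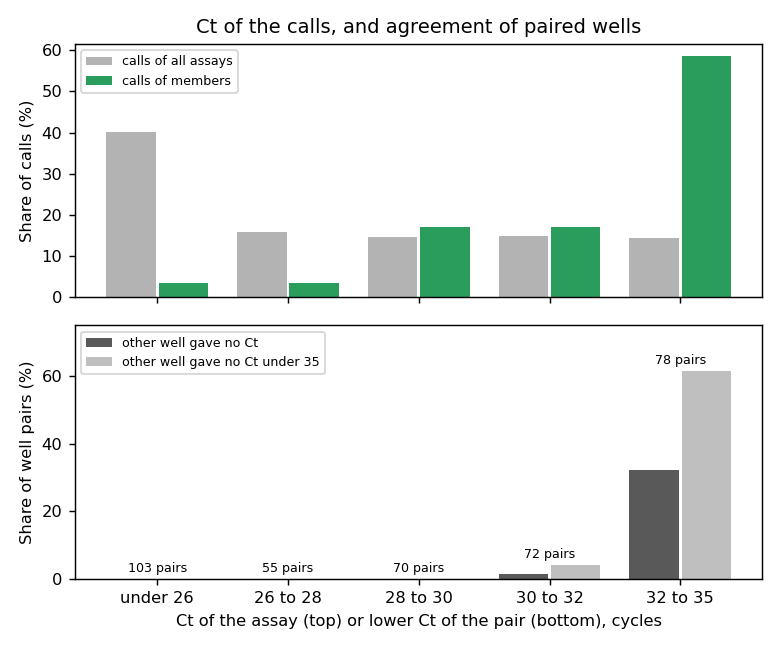
Top, share of calls (%) by Ct band for all assays (grey) and members (green); bottom, share of well pairs on card B (%) whose other well gave no Ct (dark) or no Ct under 35 (light), by the lower Ct of the pair. Calls of members gather at 32 to 35 cycles (58.6%, against 14.4% of all calls), the band in which 32.1% of pairs had an empty other well.

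The number of members called differed widely within each group. CPN replicates 1, 2 and 3 called 4, 1 and 8 members, and SCPN replicates 1, 2 and 3 called 10, 4 and 2, so the groups overlap. The same CPN samples called 54.6%, 42.8% and 54.6% of all assays, and the SCPN samples 56.7%, 47.6% and 45.4%. The mean Ct of the 159 card A assays called in every sample, a gauge of template, came to 22.6, 28.1 and 24.7 for CPN replicates 1 to 3 and to 21.8, 27.1 and 27.2 for SCPN replicates 1 to 3. SCPN replicate 1, with the lowest mean Ct, thus called the most members and CPN replicate 2, with the highest, the fewest, while CPN replicate 1 called fewer members than CPN replicate 3 at a lower mean Ct. The part of template amount in these counts was not tested.

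**Figure D3:**
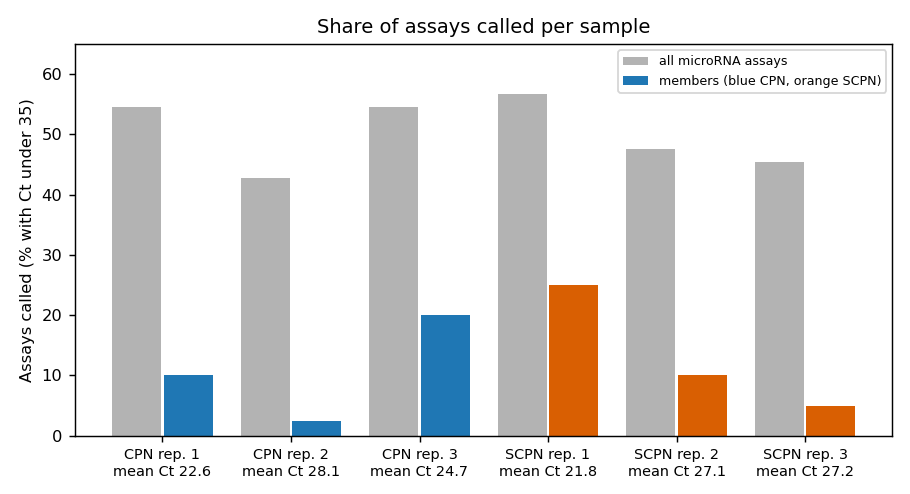
Share of assays with Ct under 35 (%) in each sample, grey for all 584 microRNA assays and coloured for the 40 members (blue CPN, orange SCPN); the mean Ct of the common card A assays stands under each sample. Members run from 2.5% to 25%, below all assays (42.8% to 56.7%) in each of the 6 samples.

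To set samples of different template side by side, levels were written as the mean Ct of the common assays of the card minus the Ct of the assay. A level of 0 is the mean of those assays, 1 unit is 1 cycle (equal to log2 if each cycle doubles the product), and levels of different assays also carry each assay's own efficiency. On this scale Ct 35 on card A lay at -12.41, -6.93 and -10.26 in CPN and at -13.22, -7.86 and -7.77 in SCPN, so an uncalled assay has only these bounds. Taking the highest limit of each card (-6.93 on card A, -6.20 on card B) as the floor in every sample left 7 members above it in at least 1 sample, against 56.7% of all assays. These were miR-375 in 5 samples, miR-302b and miR-367 in 2 each, and miR-216b, miR-291b-5p, miR-292-3p and miR-196c in 1 each.

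Each call was also carried into the other samples, by asking at which Ct the same level would have appeared there. Where that Ct was under 33, the other sample called the assay in 40 of 67 cases (59.7%) for all members. For members other than miR-375 it did so in 14 of 41 cases (34.1%). For assays outside the set the share was 95.5% of 7669 cases, and 70.7% of 1170 cases among those called in 1 to 5 samples. Cases of 1 assay are not independent, and members called once or seldom must have low shares, so this is a description. MiR-375 was called in all 5 of the other samples that could show it.

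MiR-375, which restrains insulin secretion in islet cells, was the single member measured throughout. Its Ct was 25.3, 33.8 and 29.0 in CPN replicates 1 to 3 and 28.7, 32.6 and 31.8 in SCPN replicates 1 to 3. The levels were -2.69, -5.71 and -4.24 in CPN and -6.93, -5.48 and -4.53 in SCPN. CPN replicate 1 was highest and SCPN replicate 1 lowest, and the other 4 samples of both groups lay between and mixed. Among the 159 card A assays called in every sample it ranked 116th in CPN replicate 1 and between 146th and 154th in the other samples, so it stood in the low end of the common microRNAs. The group means were -4.21 ± 1.51 in CPN and -5.65 ± 1.21 in SCPN (n = 3 each, error is SD), and the difference, SCPN minus CPN, was -1.44 ± 0.96 (SE, 95% interval -3.69 to 0.82, limma adjusted p 0.79). A two-sided exact permutation test gave p = 0.3 (3 against 3 cannot reach below 0.1), or 0.80 adjusted over all assays tested. A difference within that interval was not resolved by these samples, and 5.88% of all tested assays had a lower one. The authors' deposited table gives a relative quantity of 0.874 for it, SCPN over CPN. With the deposited scaling the difference was -0.19, which is that same ratio in log2 units. Without CPN replicate 1 it was -0.67, without CPN replicate 2 -2.24 and without SCPN replicate 1 -0.79.

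**Figure D4:**
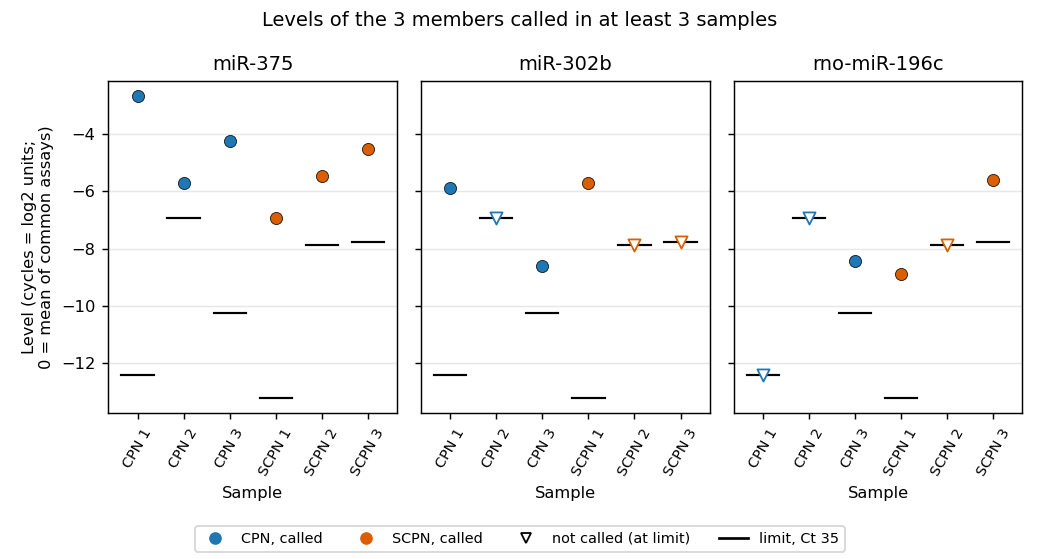
Levels (y axis, cycles relative to the mean of the common card A assays, so log2 units) of the 3 members called in at least 3 samples, by sample (x axis); filled points are calls, open triangles are uncalled samples drawn at their limit, and black bars mark the limit of Ct 35 in each sample. MiR-375 lies above the limit in all 6 samples, and the uncalled samples of miR-302b have limits of -6.93, -7.86 and -7.77.

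None of the 3 tested members passed a limma adjusted p of 0.05, as none of the 306 tested assays did (0%), and 0 of 3 passed at an unadjusted p under 0.05, against 25 of the 306 tested assays (8.17%). CPN and SCPN levels overlapped in all 3 members, where 15% of tested assays had no overlap. Their median difference was 0.016, against -0.079 over all tested assays, with 2 of 3 higher and 1 of 3 lower in SCPN.

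The miR-302 and miR-367 genes stand within 580 bases on chromosome 3 (chr3:127545228-127545807, plus strand, GRCm38.p6), inside the span of the Larp7 gene, and are known to be cut from 1 primary transcript in pluripotent cells. MiR-302b was called in CPN replicates 1 and 3 at Ct 28.5 and 33.3 and in SCPN replicate 1 at 27.5, and gave no Ct in the other 3 samples. Its levels were -5.89 and -8.60 in CPN and -5.73 in SCPN, so the calls of CPN replicate 1 and SCPN replicate 1 were close. At the level of SCPN replicate 1 it would have appeared at Ct 32.9 in SCPN replicate 2 and 33.0 in SCPN replicate 3, which gave none. With uncalled samples at their limit, the difference, SCPN minus CPN, was 0.016 ± 0.92 (SE, 95% interval -2.14 to 2.18, limma adjusted p 0.99). The sign rested on the handling of uncalled samples and on the scaling, with -1.63 when no Ct limit was set and -0.17 with median scaling. With the deposited scaling the difference was 1.26.

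The other members of the miR-302 cluster shared some of the samples of miR-302b and not others. MiR-367 was called in CPN replicate 1 at Ct 29.2 and in SCPN replicate 2 at 32.5, levels of -6.61 and -5.39. It gave no Ct in SCPN replicate 1, where its highest level would have appeared at 27.2 and where miR-302b had its lowest Ct. MiR-302a, at Ct 34.1, and miR-302d, at 33.6, were called in SCPN replicate 1 alone, at levels of -12.33 and -11.77. At these levels CPN replicate 1 would have shown them at Ct 34.9 and 34.4, just under the limit, and gave no Ct, while the other 4 samples would have shown them only beyond 35. MiR-302a also gave a Ct of 35.8 in SCPN replicate 3, beyond the limit, and the minor strand miR-302b* a Ct of 37.6 in 1 of its 2 wells in CPN replicate 1. MiR-302c and the other minor strands of this cluster gave no Ct.

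Of the 4 assays outside the set with the seed of miR-367, miR-92a and miR-25 had higher levels than miR-367 in every sample, and miR-32 and miR-363 lower ones than either of its calls. MiR-92a, of the progenitor-linked miR-17 cluster, was called in all 6 samples, with levels of 6.04 ± 0.99 (CPN) and 4.02 ± 0.69 (SCPN), while miR-25 had levels of -0.69 ± 1.99 and -1.26 ± 1.44 (n = 3 each, error is SD). MiR-32 was called in CPN replicates 1 and 3 and SCPN replicate 1 at levels of -6.96, -7.54 and -7.20, and miR-363 in CPN replicate 1 and SCPN replicate 1 at -11.52 and -12.37. The seed AUUGCAC was thus present in every sample through miR-92a and miR-25, whether or not miR-367 was called.

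The miR-290 to miR-295 genes stand within 2216 bases on chromosome 7 (chr7:3218626-3220841, plus strand, GRCm38.p6). CPN replicate 3 called 3 of their assays, miR-292-3p at Ct 31.6, miR-294 at 32.3 and miR-295 at 33.5, and no other sample called these. Their levels there were -6.85, -7.52 and -8.79. At these levels they would have appeared in CPN replicate 1 at Ct 29.4, 30.1 and 31.4 and in SCPN replicate 1 at 28.6, 29.3 and 30.6, and both samples gave no Ct for any of them. MiR-291b-5p was called in SCPN replicate 2 alone, at Ct 33.0 and a level of -5.86, and the 3 samples with more template gave none. The remaining members of the cluster, miR-290-3p, miR-290-5p, miR-291a-3p, miR-291a-5p, miR-291b-3p, miR-292-5p, miR-293, miR-293* and miR-294*, gave no Ct in any sample. Of the 5 assays with a sequence found and the seed AAGUGCU, CPN replicates 1, 2 and 3 called 1, 0 and 3. SCPN replicates 1, 2 and 3 called 2, 0 and 0 of them. No sequence was found for miR-302a, so its seed was not compared and its call is not in these counts.

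Among the Hox-linked assays, miR-10a, whose gene lies within Hoxb3 on chromosome 11, was called in CPN replicate 1 at Ct 31.1 and in SCPN replicate 1 at 33.3. The levels were -8.46 and -11.48. At the higher of these, CPN replicate 3 would have shown miR-10a at Ct 33.2, past the Ct 33 margin but within the call limit, and gave no Ct. The limits of CPN replicate 2 and of SCPN replicates 2 and 3 were too high to show it. MiR-10b, whose gene overlaps Hoxd3 and Hoxd4, gave no Ct in any sample, and neither did miR-10a*, miR-10b*, miR-196a*, miR-196b, miR-615-3p or miR-615-5p. For the uncalled miR-10b and miR-196b this bounds the level below -12.41 in CPN replicate 1 and below -13.22 in SCPN replicate 1. The set holds the minor strand miR-196a* and no assay for the main strand of miR-196a.

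MiR-196c, read by a rat-named assay, is a relative of miR-196a and miR-196b, which repress Hox messages. No mouse sequence was found for this assay, and which mouse microRNA it reads was not tested. The mouse-named miR-196b assay gave no Ct in any sample. The miR-196c assay was called in CPN replicate 3 at Ct 33.2, in SCPN replicate 1 at 30.7 and in SCPN replicate 3 at 32.8. It gave a Ct of 37.0 in CPN replicate 1, beyond the limit, and none in the other 2 samples. The levels of the 3 calls were -8.42, -8.88 and -5.61, so SCPN replicate 3 stood above the other 2 calls, and at its level CPN replicate 1 would have shown a Ct of 28.2. With uncalled samples at their limit, means were -9.25 ± 2.83 in CPN and -7.45 ± 1.67 in SCPN (n = 3 each, error is SD), and the difference was 1.80 ± 1.48 (SE, 95% interval -1.66 to 5.26, limma adjusted p 0.81). It was 0.22 without CPN replicate 1, whose limit is the lowest value of the CPN group, and 2.90 without CPN replicate 2. With the deposited scaling it was 3.04, with an unadjusted limma p of 0.0489 and an adjusted p of 0.49. That scaling moved all 3 tested members up alike, miR-375 from -1.44 to -0.19 and miR-302b from 0.016 to 1.26.

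MiR-122, the hepatocyte microRNA, was called in CPN replicate 3 at Ct 33.7 and in SCPN replicate 1 at 33.2, at levels of -8.97 and -11.38. CPN replicate 1, in which its higher level would have appeared at 31.6, gave no Ct. MiR-192 and miR-194, which are abundant in liver, kidney and gut, were called in all 6 samples, at levels of -1.30 ± 1.11 and -2.59 ± 0.19 in CPN and -0.995 ± 0.83 and -2.24 ± 0.32 in SCPN (n = 3 each, error is SD). MiR-215, of the same family as miR-192, was called in 0 samples.

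The acinar microRNAs miR-216b and miR-217 come from neighbouring genes on chromosome 11 (chr11:28746191-28763835, plus strand, GRCm38.p6). MiR-216b was called in CPN replicate 3 at Ct 31.6 and in SCPN replicate 1 at 32.5, levels of -6.83 and -10.69, and miR-217 in SCPN replicate 1 at 32.1 and in SCPN replicate 2 at 34.6, levels of -10.29 and -7.45. Both were called in SCPN replicate 1. CPN replicate 1, in which their higher levels would have appeared at Ct 29.4 for miR-216b and 30.045 for miR-217, gave no Ct for either, nor did CPN replicate 3 for miR-217, expected at 32.2. MiR-216a, from the gene between them, gave no Ct.

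No heart assay gave a Ct. MiR-208a and miR-208b lie within Myh6 and Myh7, the cardiac myosin genes, and miR-499 within Myh7b. Of 4 muscle microRNAs outside the set, miR-133a was called in 6 samples, miR-206 in 5, miR-1 in 2, both CPN, and miR-133b in 0.

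Of the red cell microRNAs, miR-451 was called in SCPN replicate 1 alone, at Ct 29.4 and a level of -7.62, and miR-486 in 0 samples. At that level miR-451 would have appeared at Ct 30.2 in CPN replicate 1 and 32.4 in CPN replicate 3, and both gave no Ct. The remaining 3 samples would have shown it only at 34.8 or later. MiR-223, a myeloid microRNA, was called in all 6 samples, with levels of -4.07 ± 1.30 in CPN and -3.98 ± 0.63 in SCPN, and the endothelial miR-126-3p at 2.01 ± 0.48 and 3.12 ± 1.19 (n = 3 each, error is SD). Of the 5 microglia and white blood cell assays, 3 were called in all 6 samples, miR-142-3p in 4 and miR-142-5p in 0. The other endothelial assay, miR-126-5p, was also called in all 6, at -2.28 ± 0.76 in CPN and -1.49 ± 1.12 in SCPN. The part of blood or vessel cells in the miR-451 call was not tested.

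The neuron markers were called throughout. All 6 of them, miR-9, miR-9*, miR-124, miR-128, miR-137 and miR-138, were called in all 6 samples, with miR-9 at levels of 8.30 ± 1.08 in CPN and 8.01 ± 0.68 in SCPN (n = 3 each, error is SD), the highest of them, and miR-124, the lowest, at -0.88 ± 0.34 and -1.25 ± 0.87, near the mean of the common assays. Of the markers of other brain cells, 1 of 4 astrocyte, 0 of 2 oligodendrocyte, 3 of 5 microglia and white blood cell and 2 of 2 endothelial assays were called in all 6 samples. In at least 1 sample, 3, 2, 4 and 2 of these assays were called, in the same order. Of the 40 members, 1 was called in all 6 samples and 15 in at least 1, against 38.4% and 63.9% of all assays.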

How the data were processed

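The raw sheet deposited by the authors lists 1 Ct or the word Undetermined for each well of both TaqMan rodent microRNA cards (miRBase release 10, per the series' design text), and RNA was isolated with the miRVana kit, per the labels' protocols. How Ct thresholds were set is not given in the sources used here. Against the raw sheet, the authors' normalised sheet differs by 1 constant per sample and card. The authors' deposited fold table holds a ratio (RQ) for 240 assays, 1 of them a member. Paired wells were averaged, leaving out empty ones, a mean of 35 or more or no Ct was set to 35, and levels were scaled per sample and card on the assays called in all 6 samples (159 on card A, 65 on card B). The 306 assays called in at least 3 samples were fitted across all assays with limma 3.58.1 in R 4.3.3 (lmFit, eBayes, two-sided, Benjamini-Hochberg), tested on simulated data first. Every member called in at least 1 sample is named with its values. Members and lists were chosen with earlier results of these data known, and the Ct 33 margin and the paired-well shares after seeing the data. Same-numbered samples deviated together in all 3 pairs (correlations 0.55, 0.29 and 0.30 over tested assays, though CPN replicate 2 and SCPN replicate 3 reached 0.32), so the shared numbers of the labels were used as a block in an alternative. Uncalled values set at the limit of their sample enter these correlations. CPN replicate 1 and SCPN replicate 1 had the lowest limits (-12.41 and -13.22 on card A). The part of template amount in the correlations was not tested. No read depth exists, and precision rests on 3 samples per group and the Ct limit.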

Additional observations from a re-analysis of the deposited data

How the results depend on the processing

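Call counts depended on the limit. With a limit of Ct 32, 8 members were called in at least 1 sample and 1 in at least 3, and with the common floor 7 and 1, against 15 and 3. Of all 584 assays, 264 were called in at least 3 samples with the limit of Ct 32 and 263 with the common floor, against 306. Setting no limit moved neither count of members by over 1.5 times, and requiring both wells could not change them, as every called member has 1 well. Leaving out 1 sample gave 1 to 3 members called in at least 3 samples (1 without CPN replicate 3 or SCPN replicate 1). The count over all 584 assays was then 281 to 304. The limma count at adjusted p 0.05 over all assays was 0 in 16 of 17 alternatives, in which 14 to 51 assays had an unadjusted p under 0.05 (25 with the settings used), and 1 with sample weights, an assay outside the set. With the replicate block it was again 0, with 51 at an unadjusted p, and the block changed no call of a member, at a difference of -1.44 and adjusted p 0.50 for miR-375. With the deposited scaling 1 member, miR-196c, had an unadjusted limma p under 0.05, against 0. This scaling shifted the differences of all card A assays by the same amount. MiR-302b was at 1.26 with the deposited scaling. It was at -0.17 with median scaling, -0.0090 with quantile normalization and -1.63 with no Ct limit, against 0.016, and the cause was not tested. The difference of miR-375 was below 0 in all 17 alternatives (-2.24 to -0.19, adjusted p 0.50 to 0.97) and that of miR-196c above 0 in all 11 that tested it (0.22 to 3.04). Late Ct, single wells and unequal template limit all these values.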
